A study of Mus musculus with 8 samples.

Results

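The 2054 microRNA (miRNA) genes that GENCODE M21 places on mouse chromosomes 1 to 19 were examined, out of 51229 genes of all types on these chromosomes. Each gene was given a window that reached from 1000 bp before to 1000 bp past it, and a window was called bound when a peak of a list covered at least 20 bp of it. Of these genes, 1084 carried a symbol starting with Mir and 970 carried another symbol, mostly of the Gm series. A gene was intronic when it lay inside a longer gene of the same strand without touching an exon (763 genes), exonic when it touched a same-strand exon (382 genes), antisense when it overlapped longer genes of the opposite strand only (311 genes), and intergenic when it overlapped no such gene (598 genes). Genes that lie close together share peaks: joining overlapping windows left 1777 loci.

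The 8 peak lists came from chromatin immunoprecipitation followed by sequencing (ChIP-seq) in E14Tg2a, a mouse embryonic stem cell (ESC) line used at passages 37 to 40. ESCs were grown with leukemia inhibitory factor (LIF), which holds them in the pluripotent state, and neuronal cells (NCs) were obtained by removing LIF and adding 1 µM retinoic acid (RA) for 48 h. Antibodies to FGFR1, a fibroblast growth factor receptor that also enters the nucleus, and to the nuclear receptors RXR and Nur77 were used in both states, and an antibody to the histone variant H3.3 was used in NCs. FGFR1 in RA was represented by 2 libraries, here called replicate 1 and replicate 2, and every other group by 1 library, so that no p-value is given. All libraries came from 1 cell line with pooled culture plates, and the commands given for peak calling name no control library.

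A miRNA is cut from a hairpin within a longer transcript and guides a silencing complex to messenger RNAs that pair with its seed, the bases near its 5′ end. Many miRNA genes lie in introns of protein-coding or long noncoding host genes and are transcribed with them, while intergenic ones start from their own promoters, often far from the hairpin. In mouse ESCs the miR-290 and miR-17 clusters are among the abundant miRNAs, whereas miR-9, miR-124, miR-132 and miR-137 are known from neurons and their progenitors.

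The mature sequences below belong to genes on which the results turn. They are from RefSeq (GRCm38.p6), whose miRNA table matched 940 of the 2054 genes and 217 of the 383 bound ones by symbol. They run 5′ to 3′, and have the seed, bases 2 to 8, in capitals. The first set comes from the miR-290 cluster, in which 3 of the printed miRNAs have the same seed.
miR-290a-3p: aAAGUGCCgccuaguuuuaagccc
miR-291a-3p: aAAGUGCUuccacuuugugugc
miR-294-3p: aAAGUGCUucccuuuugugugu
miR-295-3p: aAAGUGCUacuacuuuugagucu

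The second set comes from the miR-17 cluster, whose printed members fall into 3 seed groups.
miR-17-5p: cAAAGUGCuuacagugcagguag
miR-20a-5p: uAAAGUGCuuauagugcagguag
miR-19a-3p: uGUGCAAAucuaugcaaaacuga
miR-19b-3p: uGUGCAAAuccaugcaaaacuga
miR-92a-3p: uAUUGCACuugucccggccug

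The third set holds neural miRNAs and let-7i. miR-132 and miR-212 share a seed, and the miR-9 sequence is the same in its 3 genes.
miR-9-5p: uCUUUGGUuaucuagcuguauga
miR-137-3p: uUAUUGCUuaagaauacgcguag
miR-132-3p: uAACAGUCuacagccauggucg
miR-212-3p: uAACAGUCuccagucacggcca
miR-218-5p: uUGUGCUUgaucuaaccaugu
miR-219a-5p: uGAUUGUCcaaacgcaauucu
miR-7a-5p: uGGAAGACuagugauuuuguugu
let-7i-5p: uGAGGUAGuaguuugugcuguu

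The last set comes from genes whose windows were bound in all 8 lists.
miR-1938: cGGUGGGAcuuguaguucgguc
miR-7071-5p: cCCGGGAGcgaggugcugcagcg
miR-6236: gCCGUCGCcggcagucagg

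The lists differed in depth and kind. The background density solved from the peaks ran from 1.27 fragments per kb in H3.3 to 7.09 in RXR in LIF, and FGFR1 replicate 2 stood apart from the other 7 lists. Its peaks had a median width of 311 bp against 89.0 to 140.0 bp, and 1.27% of them held an alternating purine-pyrimidine tract of 20 bp or more, such as a CA repeat, against 20.999% to 51.7% in the others. Results on FGFR1 in RA are therefore given for each library.

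FGFR1 in LIF bound 53 windows, or 2.58% (95% Clopper-Pearson interval 1.94 to 3.36) of the 2054. As background, 1.01% of 1146397 tiles of the genome, each as long as the median window (2090 bp), held a peak of that list. RXR in LIF bound 170 windows (8.28%), with a background of 2.46%. Nur77 in LIF bound 97 windows (4.72%), with a background of 1.95%. In NCs, FGFR1 bound 223 windows (10.9%) in replicate 1 over a background of 3.7%, and 155 windows (7.55%) in replicate 2 over a background of 1.26%. RXR in RA bound 82 windows (3.99%) over 1.35%, Nur77 in RA 132 windows (6.43%) over 2.26%, and H3.3 in RA 50 windows (2.43%) over 0.952%. The share of windows was above that of tiles in all 8 lists, and the Newcombe 95% interval of each of the 8 differences excluded 0. The ratio was highest in FGFR1 replicate 2 (5.98) and lowest in Nur77 in LIF (2.42). At the 5′ ends of 20807 protein-coding genes the same windows were bound far more often, in 13.9% (H3.3) to 47.2% (FGFR1 replicate 2). All intervals here cover counting error only, and windows in a cluster are not independent.

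Intronic and intergenic miRNA genes were bound at rates that the counting error did not separate in any list. For FGFR1 in LIF, 11 of 763 intronic windows (1.44%) and 8 of 598 intergenic windows (1.34%) held a peak, a difference of 0.10 percentage points with a Newcombe 95% interval of −1.325 to 1.404. The difference was largest in FGFR1 replicate 1, at 7.86% intronic against 6.35% intergenic (1.51 points, −1.31 to 4.23), and was negative in replicate 2, at 3.93% against 4.52% (−0.58 points, −2.88 to 1.56). RXR bound 5.11% and 5.02% in LIF and 2.23% and 2.17% in RA. Nur77 bound 3.67% and 2.68% in LIF and 4.98% and 3.85% in RA. H3.3 was found at 1.31% and 1.34%. None of the 8 intervals excluded 0, and together they span −2.88 to 4.23 points. Among the genes with Mir symbols alone, FGFR1 replicate 2 had a lower share at intronic than at intergenic windows (−5.21 points, −10.5 to −1.09), while the other 7 intervals included 0. With the window widened to 5000 bp on each side, 3 lists had more intronic than intergenic windows bound: Nur77 in LIF (4.85 points, 1.59 to 8.03), FGFR1 replicate 1 (7.04 points, 2.52 to 11.4) and FGFR1 replicate 2 (4.98 points, 1.46 to 8.40).

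**Figure D1:**
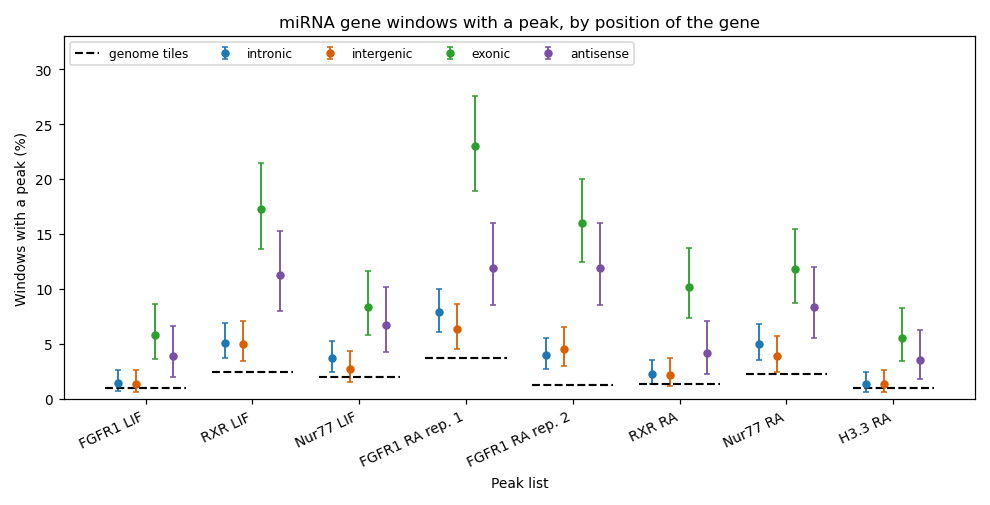
Share of miRNA gene windows with a peak (y axis, percent) in each of the 8 peak lists (x axis), by position of the gene; points are shares, bars are 95% Clopper-Pearson intervals and dashed lines are the shares of genome tiles. Intronic and intergenic points lie side by side in every list (1.44% and 1.34% for FGFR1 in LIF), while exonic points are the highest in each list, reaching 23.0% in FGFR1 RA replicate 1.

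The other classes were higher. Exonic windows were bound in 5.50% (H3.3) to 23.0% (FGFR1 replicate 1), above intergenic ones in 8 of 8 lists, and each of these intervals excluded 0. Antisense windows were bound in 3.54% (H3.3) to 11.9% (both FGFR1 libraries in RA), above intergenic windows in 8 lists, with an interval that excluded 0 in 7. These classes also lie closest to transcript starts. The median distance from the miRNA gene to the nearest start of a gene that is not itself a small RNA gene was 335 bp for exonic, 4942 bp for antisense, 6583 bp for intronic and 14233 bp for intergenic genes. A start within 1 kb was present for 63.4% of exonic, 26.7% of antisense, 16.6% of intronic and 6.69% of intergenic genes.

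Windows near a transcript start were bound more often than the rest in every list. Among the 492 genes with a start within 1 kb, 7.32% were bound by FGFR1 in LIF, 29.7% and 26.6% by FGFR1 in the RA libraries, 23.2% by RXR in LIF and 11.8% in RA, 11.4% by Nur77 in LIF and 13.4% in RA, and 8.13% by H3.3. Among the 322 genes over 50 kb from any start the highest share in a list was 2.17%, and FGFR1 replicate 2 bound none of them, which allows a share of up to 0.932% (3 counts of the total). With the 1562 genes over 1 kb from a start taken alone, intronic windows were bound less often than intergenic ones in 8 of 8 lists. The differences were 0.11 to 1.58 points, and none of these 8 intervals excluded 0. The 636 intronic windows there include all 119 in introns of Sfmbt2, of which none was bound in any list. Leaving them out keeps the bound counts and so raises the intronic shares. The intronic share is then the higher one for Nur77 in both states and FGFR1 replicate 1. It stays lower in the rest, so the order in 8 of 8 lists depends on these 119 windows. In the 4 distance ranges of the 8 lists, 2 of 32 intervals excluded 0: FGFR1 replicate 2 at 1 to 5 kb, where 1.395% of intronic and 6.31% of intergenic windows were bound, and RXR in LIF at 5 to 50 kb, where the shares were 1.56% and 4.76%. The antisense difference also shrank away from starts, to between −1.19 and 2.24 points, with no interval that excluded 0. The exonic difference there excluded 0 in 2 lists, Nur77 in RA (5.52 points, 1.28 to 11.6) and RXR in RA (4.28 points, 1.17 to 9.48), and within 1 kb of a start it excluded 0 in none of the 8.

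**Figure D2:**
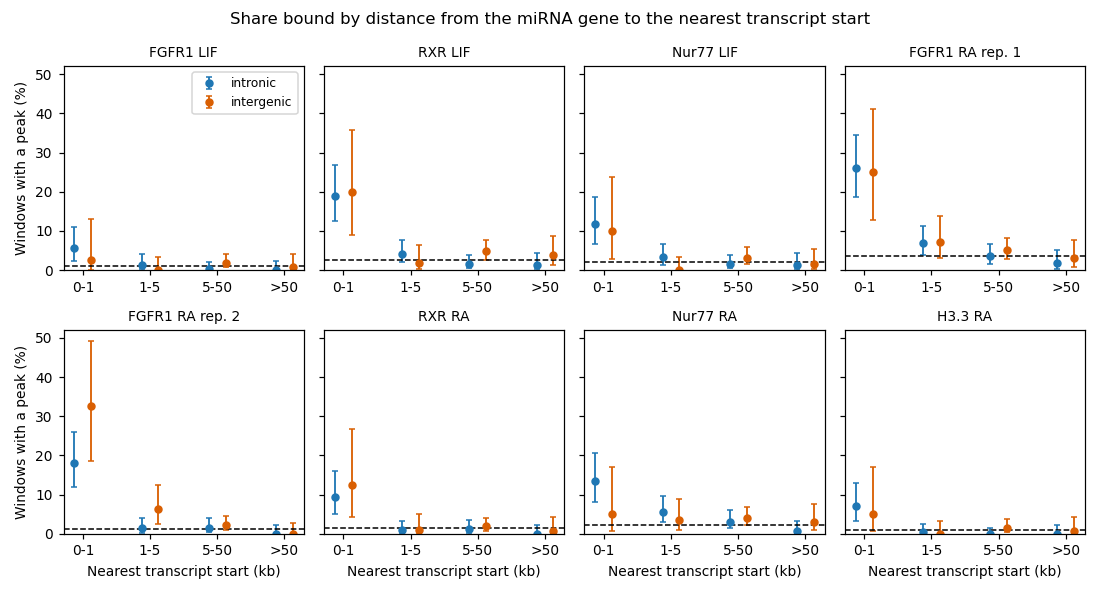
Share of intronic and intergenic miRNA gene windows with a peak (y axis, percent) against the distance from the gene to the nearest transcript start (x axis, kb), one panel per peak list, with 95% Clopper-Pearson intervals; the dashed line is the share of genome tiles. In the first range the shares reach 26.0% (intronic, FGFR1 RA replicate 1) and 32.5% (intergenic, FGFR1 RA replicate 2), and beyond 5 kb no share is above 5.08%.

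Away from starts, miRNA windows were still bound somewhat more often than tiles without a start in 6 of 8 lists whose interval excluded 0. The largest of these differences was 2.39 points for Nur77 in RA (4.23% against 1.84%, interval 1.497 to 3.503), followed by 2.19 points for FGFR1 replicate 1 (4.93% against 2.74%). The interval included 0 for FGFR1 in LIF (1.09% against 0.743%) and H3.3 (0.640% against 0.702%).

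Windows rich in CpG were also bound more often. The observed over expected CpG ratio had a median of 0.223 in all windows and 0.165 in tiles. In the 139 windows with a ratio of 0.6 or more, FGFR1 bound 22.3% in LIF and 73.4% and 67.6% in RA, RXR bound 59.0% in LIF and 30.9% in RA, Nur77 bound 30.9% and 33.8%, and H3.3 was found in 23.0%. In the 825 windows below 0.2 the highest share was 3.15%, in Nur77 in RA. Of 8049 tiles with a ratio of 0.6 or more, 23.9% were bound by FGFR1 in LIF, 68.2% and 61.5% in RA, and 59.8% by RXR in LIF.

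**Figure D3:**
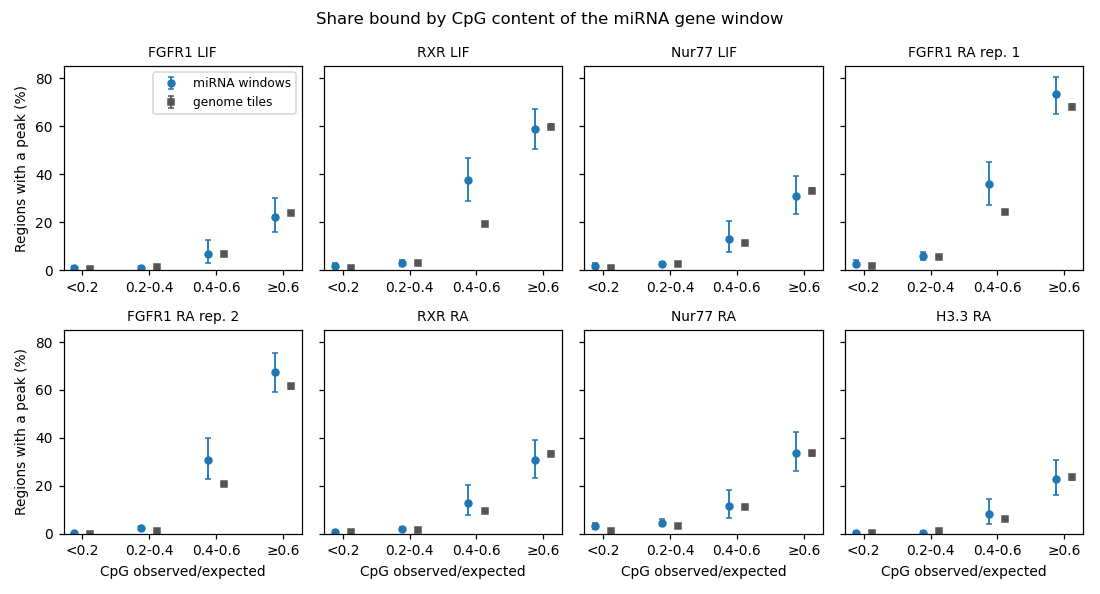
Share of regions with a peak (y axis, percent) against the observed over expected CpG ratio (x axis), one panel per peak list, for miRNA gene windows (circles) and genome tiles (squares), with 95% Clopper-Pearson intervals. Both are highest in the top CpG range, where FGFR1 RA replicate 1 covers 73.4% of windows and 68.2% of tiles.

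Peaks in these windows were mostly peaks at transcript starts. Between 56.2% (Nur77 in RA) and 90.3% (FGFR1 replicate 2) of the distinct peaks of a list in these windows had their summit within 1 kb of a start. The same share for all peaks of a list is not given here, so these values are not read as particular to miRNA windows. The alternating tracts that made up 51.7% of all FGFR1 peaks in LIF were in 11.5% of the FGFR1 peaks in miRNA windows, and the share was also lower for RXR in RA, at 9.21% against 45.1%. A tract was present in 677 windows, and the share bound was lower in windows with one than without one in 8 of 8 lists, with an interval that excluded 0 in 5. The 677 include the 119 windows in Sfmbt2, none of which was bound and in which few words are unique. Among windows over 1 kb from a start, the share bound was lower with a tract in 6 of 8 lists. All 119 Sfmbt2 windows are in that set too, and leaving them out raises the shares with a tract. The share with a tract is then also higher for Nur77 in both states. It stays lower for RXR in both states and for both FGFR1 libraries in RA. Over all tiles the order was the other way in 7 lists, for example 2.09% with a tract against 0.524% without for FGFR1 in LIF, 2.52% against 0.816% for RXR in RA and 1.86% against 0.542% for H3.3, while FGFR1 replicate 2 had 0.868% against 1.44%. A peak touched the miRNA gene itself in 12 (H3.3) to 64 (FGFR1 replicate 1) windows of a list.

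The letters AAAGGTCA, the known Nur77 response element read on both strands, were in 8.71% of all miRNA windows and 11.5% of tiles. They were in 7.58% of the windows that Nur77 bound in RA and 5.15% of those it bound in LIF. In the 100 bp around the summit they were found in 1 of 130 Nur77 peaks of RA windows and 0 of 99 of LIF windows, which allows up to 3.03% (3 counts of the total), against 0.539% of all 100 bp tiles of the genome. The nuclear receptor core element AGGTCA, which is contained in the longer element, was in 5.61% of 100 bp tiles. It was in 5.45% of the summit regions of 202 RXR peaks of LIF windows and 2.63% of 76 of RA windows. For Nur77 it was in 7.07% of 99 summit regions of LIF windows and 3.85% of 130 of RA windows.

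In all, 383 windows were bound in at least 1 list (18.6%, against 7.21% of tiles) and 1671 in none. Of the former, 162 were bound in 1 list only, and 99 were bound in 4 or more. Of these 99, 82 had a transcript start within 1 kb, and their median CpG ratio was 0.686, against 0.208 in windows bound in no list. There were 4 windows bound in all 8 lists, and with FGFR1 replicate 2 left out, 6 windows were bound in the other 7. The shares of tiles bound in 1 list only, in 4 or more or in all 8 are not given here. These counts are therefore not read as particular to miRNA windows.

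Of these 4, Mir6236 was unlike the rest. It is an intergenic gene at chr9:110281287-110281409 in mm10, 12528 bp from the nearest start, with a CpG ratio of 0.216. Its −log10 p, as MACS2 gave it, reached 85.9 (FGFR1), 83.6 (RXR) and 66.0 (Nur77) in LIF. In RA it was 64.7 and 48.5 in the FGFR1 libraries, 36.8 (RXR), 34.7 (Nur77) and 22.5 (H3.3). All 3 values of LIF were above all 5 of RA, although a −log10 p also depends on the depth of its library. There was 1 peak per list, and the 8 summits lay within 29 bp of each other, 18 to 47 bp past the 5′ end of the hairpin gene. All 4 antibodies gave this site, and no control library is named for peak calling. Over the whole window, 91.2% of the 32-base words occur once in the genome. The share under the peaks themselves was not computed, so this value does not show that the site is unique.

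The other 3 genes were intronic and within 402 bp of a start. Mir7071, in Heatr3 at chr8:88138206-88138274, had −log10 p values of 8.7 (FGFR1), 19.6 (RXR) and 9.8 (Nur77) in LIF and of 35.6 and 29.5 (FGFR1), 14.0 (RXR), 21.6 (Nur77) and 19.9 (H3.3) in RA. Mir1938, in Ifrd1 at chr12:40222712-40222811, ranged from 8.1 to 15.9 in 7 lists and reached 143.4 in FGFR1 replicate 2. Mir7666, in Fgf20 at chr8:40307875-40307929, ranged from 7.4 to 11.2 in 7 lists and reached 36.1 in FGFR1 replicate 2. In both, the value of replicate 2 was the highest, while FGFR1 replicate 1 was within the range of the rest.

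Gm24275, an intergenic gene on chromosome 11 that is 153842 bp from any start, was bound in 7 lists with −log10 p values of 40.9 to 88.6 and had no peak in FGFR1 replicate 2. Its peaks lay on an alternating tract. Mir3090, an intergenic gene whose nearest start is that of Bmp2, had the same pattern, with values of 15.3 to 38.3 in 7 lists on a tract and none in replicate 2. Strong peaks of replicate 2 lay elsewhere, near transcript starts. Its −log10 p was 221.7 in the window of Snord43, a gene in Rpl3 that is named as a small nucleolar RNA and typed as miRNA, and 174.3 at Gm44335 opposite H2afx.

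For genes chosen as clusters of ESCs, 15 of 28 windows were bound in at least 1 list (53.6%, against 18.6% of all miRNA windows and 7.21% of tiles), but these 15 lay in 2 of 6 loci and rested on 5 peaks. The miR-290 cluster, on chromosome 7, held 3 of them, at 3 different places. FGFR1 in LIF had a peak downstream of Mir295 at chr7:3221583-3221819 (−log10 p 17.5, fold 9.51, 18 fragments at the summit), within the windows of Mir294 and Mir295. RXR in LIF had a peak inside the cluster at chr7:3219617-3219716 (−log10 p 13.4), within the windows of the 8 genes from Mir290a to Mir294. In NCs neither peak was called, and FGFR1 replicate 2 alone had one upstream of Mir290a at chr7:3217736-3217921 (−log10 p 15.6). FGFR1 and RXR thus had no shared site in LIF, and FGFR1 replicate 1 had no peak there.

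The miR-17 cluster in Mir17hg, on chromosome 14, had the opposite order of states. It had no peak in LIF. In RA, RXR (chr14:115043733-115043856, −log10 p 12.9) and Nur77 (chr14:115043725-115043818, −log10 p 10.9) had overlapping peaks that began within Mir17 and reached toward Mir18, and which lie in the windows of all 6 genes from Mir17 to Mir92-1. FGFR1 had none in either RA library. The other 13 windows, of the miR-302, miR-106b and miR-200 groups, were not bound in any list.

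Of 32 genes of neural families, 16 were bound in at least 1 list, in 12 of 28 loci, against 18.6% of all miRNA windows and 7.21% of tiles. By list, 2 were bound by FGFR1, 8 by RXR and 3 by Nur77 in LIF. Of all windows these lists bound 2.58%, 8.28% and 4.72%. In RA, 14 and 6 were bound by FGFR1, 3 by RXR, 4 by Nur77 and 2 by H3.3. The shares of all windows there were 10.9%, 7.55%, 3.99%, 6.43% and 2.43%. Of the 32, 18 have a transcript start within 1 kb, as have 23.95% of all 2054 genes. Among all 492 genes with such a start, 211 were bound in at least 1 list. All 3 genes of miR-9 were bound. Mir9-2, in an exon of the long noncoding RNA C130071C03Rik, had peaks of RXR in LIF (−log10 p 9.2), FGFR1 replicate 1 (11.9) and Nur77 in RA (8.4), with summits at −856, −852 and −852 bp from the 5′ end of the gene. Mir9-3 was bound by Nur77 in LIF (9.9) and by FGFR1 in both RA libraries (8.8 and 11.4). Mir9-1 was bound by Nur77 in RA only (7.4).

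Mir132 and Mir212, which share a seed and lie side by side on chromosome 11, were bound by FGFR1 (9.5), RXR (11.8) and Nur77 (6.3) in LIF and by FGFR1 replicate 1 (8.9) and Nur77 (10.0) in RA, and not by FGFR1 replicate 2. Mir219a-1 was bound by RXR in LIF (12.2), by FGFR1 in both RA libraries (15.2 and 12.03) and by H3.3 (8.2), with summits 463 to 508 bp past the 5′ end of the gene. Mir34b and Mir34c shared FGFR1 peaks of both RA libraries (16.0 and 13.7) and an RXR peak in RA (9.1), with none in LIF. Mir218-2, in an intron of Slit3 and 72131 bp from a start, had overlapping peaks of RXR in LIF (8.9) and FGFR1 replicate 1 (14.4). At Mir124a-3 and Mir137 the peaks of RXR in LIF (7.0 and 9.2) and FGFR1 replicate 1 (9.1 and 9.4) were at different places of the window, and the RXR peak of RA at Mir137 (8.2) overlapped that of LIF. Most of these FGFR1 calls are from replicate 1: Mir124a-3, Mir137, Mir218-2, Mir219a-2, Mir219b, Mir7-2, Mir9-2 and the Mir132 pair lack a peak in replicate 2.

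**Figure D4:**
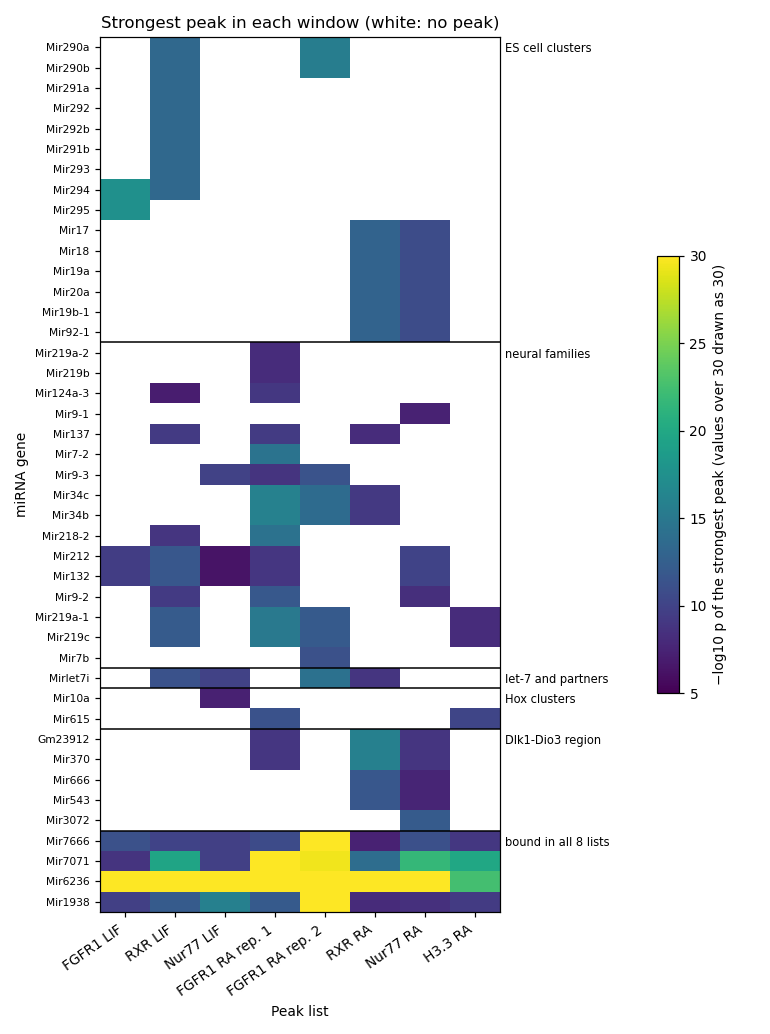
−log10 p of the strongest peak in the window (color) for bound genes of the fixed lists and the 4 genes bound in all 8 lists (y axis) in each peak list (x axis), with white for no peak and values over 30 drawn as 30. Of the miR-290 genes, Mir294 and Mir295 are filled in FGFR1 LIF and those from Mir290a to Mir294 in RXR LIF. None is filled in Nur77 LIF, and Mir290a and Mir290b are filled in FGFR1 RA replicate 2. The 6 miR-17 cluster genes are filled in RXR RA and Nur77 RA, and Mir6236 in every column.

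Of 13 genes of let-7 and its partner miRNAs, 1 was bound (7.69%, against 18.6% of all miRNA windows and 7.21% of tiles). This gene, Mirlet7i, was bound by RXR (11.3) and Nur77 (9.9) in LIF. In RA it was bound by FGFR1 replicate 2 (14.3) and RXR (8.8). All summits lay within 72 bp of the 5′ end of the hairpin. By seed, the 926 genes with a mature sequence had 1243 seeds, of which 180 were in 2 or more genes and 15 had bound genes in 2 or more loci. The miR-9-5p seed had all 3 of its genes bound, and the let-7 seed 1 of 11. No background was computed for seeds, and these counts were not tested. Of 6 genes in Hox clusters, 2 were bound (33.3%, against the same 18.6% and 7.21%). Mir10a was bound by Nur77 in LIF (7.2) and Mir615 by FGFR1 replicate 1 (11.3) and H3.3 (10.2) in RA.

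The Dlk1-Dio3 region, an imprinted stretch of chromosome 12, holds 67 miRNA genes, and 5 were bound (7.46%), which is near the 7.21% of tiles and below the 18.6% of all miRNA windows. No list of LIF had a peak in the windows of these 67 genes, and the rest of the region was not examined. Nur77 in RA bound all 5, RXR in RA 4, and FGFR1 replicate 1 had 1 peak, in the windows of Mir370 and Gm23912. Mir370, in an intron of Rian, had −log10 p values of 15.9 (RXR), 8.9 (Nur77) and 8.9 (FGFR1 replicate 1), and its RXR and strongest Nur77 peaks did not overlap. Mir666 and Mir543 shared overlapping peaks of RXR (11.8) and Nur77 (7.6). In the miRNA windows of this region, as in those of the miR-17 cluster, RXR and Nur77 had peaks in RA and none in LIF.

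The largest group had no peak in any list. The introns of Sfmbt2 on chromosome 2 hold 119 of the 763 intronic miRNA genes, and none was bound. Counted as separate windows, this allows a share of up to 2.52% (3 counts of the total). The 119 windows form only 2 loci, however, so they are not independent and this limit is too tight. All 119 windows hold an alternating tract, a feature found in 20.999% to 51.7% of peaks in 7 lists. In the median Sfmbt2 window, 33.5% of the 32-base words occur once in the genome, against 97.4% for the other 644 intronic genes, and the authors' alignment kept reads with a single place. Over all windows, 3.08% of 195 with under 50% unique words were bound in at least 1 list, 10.9% of those with 50% to 80%, 13.3% of those with 80% to 95% and 26.6% of 1028 with 95% or more. The part of read placement in these shares was not tested. Without the Sfmbt2 genes, 15.4% of intronic windows were bound in at least 1 list, against 13.0% of intergenic ones, of which 31.1% had under 80% unique words against 10.1% of the remaining intronic ones. With such windows left out of both classes, the shares were 15.6% of 609 intronic and 16.5% of 412 intergenic windows.

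**Figure D5:**
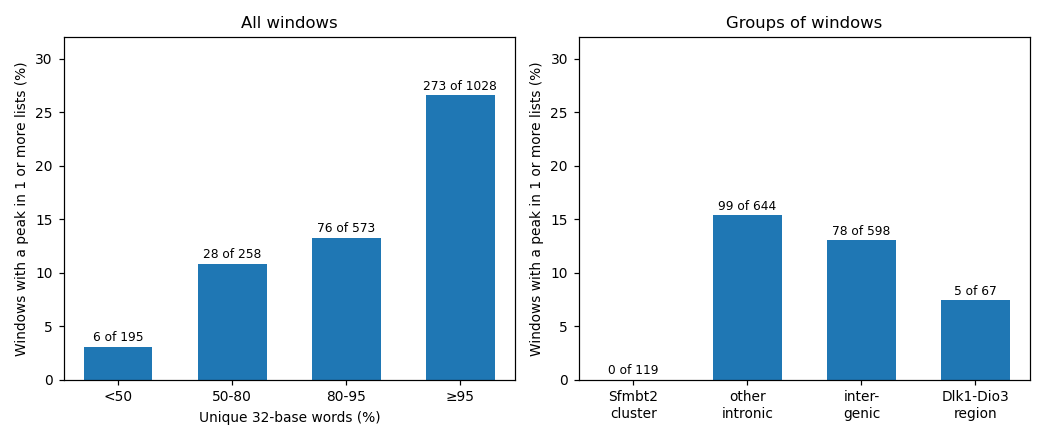
Share of windows with a peak in 1 or more lists (y axis, percent), on the left by the share of 32-base words that occur once in the genome (x axis, percent), on the right for groups of windows; labels give bound windows of all windows. The bars rise from 3.08% to 26.6% with uniqueness, and the Sfmbt2 cluster has 0 of 119.

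Between states, FGFR1 was found at more miRNA windows in RA than in LIF. The share was 9.20% ± 2.34 (SD, n = 2 libraries) in RA against 2.58% in LIF, a difference of 6.62 ± 2.34 percentage points. Both RA libraries were set against the same LIF library, so the SD of the difference is that of the RA shares and holds no spread of LIF. RXR fell by 4.28 points (interval −5.77 to −2.83) and Nur77 was 1.70 points higher in RA (0.299 to 3.12). The lists also differ in length. The ratio of RA to LIF windows was 4.21 for FGFR1 replicate 1, with a ratio of 4.05 for all peaks, 0.482 for RXR with 0.498, and 1.36 for Nur77 with 1.15. For FGFR1 replicate 2 the ratio was 2.92 for windows and 1.24 for all peaks. When each list was held to its 10634 strongest peaks, the length of the shortest list, FGFR1 replicate 1 bound 3.12% and replicate 2 6.04% of windows against 2.29% in LIF, the RXR difference was −0.63 points (−1.59 to 0.31) and the Nur77 difference turned to −0.49 points (−1.32 to 0.33).

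Of the 53 windows bound by FGFR1 in LIF, 40 (75.5%) were bound in replicate 1 and 33 (62.3%) in replicate 2, against 63.0% and 29.3% of the tiles that FGFR1 bound in LIF. RXR kept 58 of its 170 LIF windows in RA (34.1%) and gained 24, and Nur77 kept 44 of 97 (45.4%) and gained 88. Over all tiles these lists kept 30.1% and 40.02%, so the miRNA windows were near the background of their lists. FGFR1 in RA bound 105 windows in both libraries, which is 47.1% of replicate 1 and 67.7% of replicate 2, against 22.1% and 64.8% of tiles. In 90 of the 105 a peak of one library overlapped a peak of the other, and 94 had a transcript start within 1 kb, against 52 of the 118 windows bound in replicate 1 only. Of the 105 windows, 75 were not bound by FGFR1 in LIF and 30 were.

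The 10 strongest of these 75, ranked by the lower −log10 p of both libraries, were all within 426 bp of a transcript start. They include Mir191, in an exon of the lincRNA 4833445I07Rik (17.6 and 32.4 in the replicates, with no peak of any other list in its window), Mir5130 in Kctd12 (27.6 and 23.3), Gm44349 opposite Elp5 (33.9 and 26.4), and Gm44492 and Gm44367 opposite the histone genes Hist2h2ac (18.7 and 52.7) and Hist1h2ai (20.1 and 37.1). In these last 2 windows the strongest peaks of the libraries lay at different sites, and where the libraries overlapped replicate 2 had 10.5 and 22.9. Histone genes have near-identical copies, and 79.6% and 63.8% of the words of these last windows are unique. The part of read placement in these peaks was not tested.

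FGFR1 windows without either receptor were counted in each state, over lists of unequal length. In LIF, 11 of its 53 windows (20.8%) held no RXR or Nur77 peak, 23 held both, 15 held RXR and 4 held Nur77. In RA, 116 of 223 windows of replicate 1 (52.02%) and 92 of 155 of replicate 2 (59.4%) held neither receptor. Over all tiles with an FGFR1 peak these shares were 33.5% in LIF and 59.3% and 58.1% in RA, so that the higher share in RA was also found over the whole lists. Of H3.3 windows in RA, 43 of 50 held a peak of FGFR1 replicate 1 and 33 a peak of replicate 2, 28 of Nur77 and 20 of RXR. Among tiles with an H3.3 peak these shares were 74.2%, 24.6%, 62.2% and 50.3%, so that replicate 2 was the list whose share at miRNA windows (66.0%) was farthest above its share in tiles.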

How the data were processed

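E14Tg2a cells gave 8 ChIP-seq libraries, grouped by their titles. Per the labels and the study's methods, the authors aligned reads to mm10 with Bowtie 1.0, kept reads with 1 place in the genome, and called peaks with MACS2 at a p limit of 1e-05 in each library, with no pooling. The deposited values of a peak are a fold over the local background, −log10 p and −log10 q values, and a score, the −log10 p times 10 without decimals (the score was not used). Values were used to filter and rank peaks within a list.

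GENCODE M21 gave the miRNA genes, hosts and transcript starts, and RefSeq GRCm38.p6 the sequence, whose chromosomes have the lengths of mm10. Members and gene lists were chosen with earlier results of these data known. Genes are named if bound in all 8 lists, if they hold 1 of the 3 strongest peaks of a list, if among the 10 strongest FGFR1 windows in LIF or new in both RA libraries, or if bound and in a list fixed by symbol or region. A further gene that falls under this rule is not reported here. Background tiles had the median window length of 2090 bp, and those with more N than called bases were left out. Shares have exact Clopper-Pearson and differences Newcombe 95% intervals, for counting error only, and a count of 0 is given the limit of 3 counts of the total. Groups compared shared 1 replicate number at most, and no test gives a p-value. Depth is not stated in the lists: fragments at summits were solved from fold and −log10 p with the Poisson tail. Words of 32 bases were counted on both strands of chromosomes 1 to 19, X and Y. Of the 2054 genes, 940 matched the RefSeq miRNA table by symbol. Python 3.11.15, numpy 2.4.6, pandas 2.3.3 and scipy 1.17.1 were used, and the code was tested on simulated peaks.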

Additional observations from a re-analysis of the deposited data

Results flagged for a closer look

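The change from LIF to RA in the share of bound miRNA windows differed in sign between factors. RXR had a change of −4.28 percentage points, Nur77 of 1.70 points, and FGFR1 of 6.62 points as the mean of 2 libraries, both of which were positive. The single RXR comparison went down and the others went up, and the difference between factors was not tested, since RXR and Nur77 have 1 library in each state. Whole peak lists moved the same way, and with lists of equal length the Nur77 change was −0.49 points.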

How the results depend on the processing

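The overlap of 1 bp, the summit in the window, a −log10 q of 2 or more, a fold of 5 or more, the removal of tract peaks, merged loci, hosts on either strand and the removal of the Sfmbt2 genes left all recomputed values within their counting error or within 1.5 times for counts. With a −log10 p of 10 or more, the shares in the order FGFR1, RXR and Nur77 in LIF were 1.41%, 4.58% and 2.19%, those of FGFR1 replicate 1, RXR, Nur77 and H3.3 in RA were 7.89%, 1.80%, 3.65% and 1.02%, the RXR difference was −2.78 points, replicate 2 shared 57.7% of its windows with replicate 1, and 41 windows were in 4 or more lists and 1 in all 8. With the 10634 strongest peaks per list, RXR and Nur77 in LIF bound 2.73% and 2.00%, FGFR1 in RA 3.12% and 6.04%, RXR and Nur77 in RA 2.09% and 1.51%, and the differences between states were 2.29 points for FGFR1, −0.63 for RXR and −0.49 for Nur77, which reversed. There, 64.1% of replicate 1 and 33.1% of replicate 2 were shared, 31 windows were in 4 or more lists and 1 in all 8. The equal list length explains by its construction that the shares fell.

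With flanks of 500 bp the shares were 1.90%, 6.18% and 3.65% for FGFR1, RXR and Nur77 in LIF, and 8.03%, 5.89%, 3.12% and 4.43% for both FGFR1 libraries, RXR and Nur77 in RA. With flanks of 5000 bp they were 8.13%, 19.96% and 13.1% in LIF and 28.7%, 17.6%, 10.4%, 16.8% and, for H3.3, 7.45% in RA. The differences between states were then 14.995 points for FGFR1, −9.54 for RXR and 3.65 for Nur77, the intronic minus intergenic differences were 2.81 for RXR in LIF, 4.85 for Nur77 in LIF, 7.04 and 4.98 for FGFR1 in RA and −2.90 for RXR in RA, and 268 windows were in 4 or more lists and 16 in all 8. The longer windows take in more peaks by construction, and the cause of the intronic difference was not tested.

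Without windows that hold a transcript start, the shares were 1.09%, 3.59% and 2.62% in LIF and 4.93%, 1.54%, 1.54%, 4.23% and 0.640% in RA, the FGFR1 and RXR differences were 2.14 and −2.05 points, 14.3% of replicate 1 and 45.8% of replicate 2 were shared, and 17 windows were in 4 or more lists and 1 in all 8. With Mir symbols alone, FGFR1 in RA bound 12.6% and 9.13%, the intronic minus intergenic difference was −5.21 points in replicate 2 and −2.10 for RXR in RA, and 62 windows were in 4 or more lists. Without windows under 80% unique words, a setting chosen after seeing the data, as were the removal of the Sfmbt2 genes and of replicate 2 from the count of shared windows, RXR bound 10.1% in LIF and 5.06% in RA, FGFR1 replicate 1 13.2% and Nur77 in RA 7.81%. The FGFR1 difference ranged from 4.97 to 8.28 points with either RA library left out. No paired analysis was possible because no result comes from a test and the groups share fewer than 2 replicate numbers. Peaks of a few fragments, of which the median summit held 9 to 12 in 7 lists, limit what a window without a peak can show.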
